A study of Caenorhabditis elegans with 4 samples.

Results

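The regions described here are the peaks of LIN-13, a zinc-finger protein, on the arms of chromosomes II, IV and V of Caenorhabditis elegans. Each chromosome was cut into 3 sections of equal length, called left arm, middle and right arm, with its length set to the last peak end found there in any of the 3 deposited lists. A peak of the combined list was a member when its midpoint fell in an arm. The rule used position alone, and it chose 268 of the 911 combined peaks: 138 on left arms and 130 on right arms. The middles of the same chromosomes held 158 peaks and served as the comparison. Each section measured 5.01 Mb on chromosome II, 5.76 Mb on chromosome IV and 6.93 Mb on chromosome V.

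The worms were hermaphrodites of strain OP49, made by bombardment and outcrossed 3 times, which carries the unc119(ed3) allele and the transgene wgIs49. The transgene holds lin-13 joined to the tags TY1, EGFP and FLAG, with a copy of unc119. All libraries came from this strain, grown at 20 °C and labelled L1 26dC (the meaning of 26dC was not stated), so no group differed by genotype or treatment. There were 2 ChIP libraries, precipitated with goat antibodies against GFP after fixation with 2% formaldehyde, and 2 input libraries. The genotype lists no change of the endogenous lin-13 gene, so the peaks describe the tagged transgene product in whole larvae, with all tissues mixed. Titles and source names set the groups. The free-text descriptions go against them, since the antibody is listed under the samples titled Input. Whether the replicates came from separate cultures is not labelled.

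C. elegans autosomes are organised into a gene-dense centre with little recombination and flanking arms with more recombination, more repeats and transposon remnants and more histone H3 lysine 9 methylation, and the arms lie closer to the nuclear envelope. LIN-13 belongs to the synthetic multivulva class B genes and is known to act with the heterochromatin protein HPL-2 and the MBT-domain protein LIN-61, which binds methylated lysine 9. The comparison made here addresses whether tagged LIN-13 was called more densely in the outer sections or in the middle ones. These sections were cut by length alone, and no borders of recombination, repeat or methylation domains were used. How far the sections match those domains was not tested. The files give each peak a chromosome, a start, an end and a q-value, the authors' p-value corrected for multiple testing. They give no gene names, and no gene or DNA sequence was placed on the peaks here, since no genome or annotation of the files' build (WS180) was used.

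Taken over the 3 chromosomes, LIN-13 peaks did not differ in density between arms and middles beyond counting error. Of these 3 tested singly, V alone passed. The arms held 7.57 peaks per Mb (95% Poisson interval 6.69 to 8.54) and the middles 8.93 per Mb (7.59 to 10.4), a density ratio of 0.85 (95% interval 0.69 to 1.04; exact conditional binomial test, two-sided, p = 0.10, adjusted p = 0.47 over 11 comparisons). In the replicate lists the arms held 88 peaks in replicate 1 and 124 in replicate 2, a mean of 106 ± 25.5 (SD, n = 2), and the middles 34 and 66. The arm to middle density ratio was 1.29 in replicate 1 (0.86 to 1.98; exact p = 0.21) and 0.94 in replicate 2 (0.69 to 1.29; exact p = 0.70). None of the 3 lists gave a ratio that differed from 1 beyond its counting error, and the replicate lists fell on opposite sides of 1. These intervals and p-values cover counting error over peaks of a list and not the spread between larval cultures, and neighbouring peaks are not independent.

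Among chromosomes II, IV and V, V stood apart: its arms were sparse. They held 66 peaks, 31 on the left and 35 on the right, at 4.77 per Mb (3.69 to 6.06), against 60 peaks at 8.66 per Mb (6.61 to 11.1) in the centre. The ratio was 0.55 (0.38 to 0.79; exact p = 0.00090, adjusted p = 0.0027 over 3 chromosomes). Replicate 2 gave 24 arm peaks against 27 in the centre, a ratio of 0.44 (0.25 to 0.80; exact p = 0.0044, adjusted p = 0.013). Replicate 1 gave 17 against 14, a ratio of 0.61 whose interval of 0.28 to 1.33 held 1 (exact p = 0.18). Sparser arms were not particular to V, though chromosome I, outside the members, was not tested. In the combined list its arms held 9.08 per Mb (7.31 to 11.1) and its centre 14.2 (11.1 to 17.9). Arms and centre of I held 1.40 and 2.00 per Mb in replicate 1 and 2.00 and 3.59 in replicate 2. On chromosome IV the arms held 119 peaks (10.3 per Mb) and the centre 52 (9.03 per Mb), a ratio of 1.14 (0.82 to 1.62). On chromosome II they held 83 (8.29 per Mb) against 46 (9.18 per Mb), a ratio of 0.90 (0.62 to 1.32). The direction on chromosome II turned in both replicate lists, to 2.06 in replicate 1 (0.93 to 5.17; 33 against 8 peaks; exact p = 0.068) and 1.47 in replicate 2 (0.82 to 2.78; 47 against 16; exact p = 0.23), none of which passed.

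The arm to middle ratio of chromosome IV was 2.08 times that of chromosome V (95% interval 1.25 to 3.45; adjusted p = 0.011 over 3 pairs by Fisher's exact test). In replicate 2 this quotient stood at 2.57 (1.16 to 5.78; adjusted exact p = 0.023). Replicate 1 gave 2.58 (0.90 to 7.59; adjusted exact p = 0.082), which did not pass. Chromosome II against chromosome V gave 1.64 in the combined list (0.96 to 2.80; adjusted exact p = 0.086), 3.34 in replicate 1 (adjusted exact p = 0.069) and 3.27 in replicate 2 (adjusted exact p = 0.010). No difference was detectable between chromosomes II and IV, with a quotient of 0.79 in the combined list (0.47 to 1.32; adjusted exact p = 0.38), 1.30 in replicate 1 (0.43 to 4.14; adjusted exact p = 0.80) and 1.27 in replicate 2 (0.57 to 2.91; adjusted exact p = 0.57).

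**Figure D1:**
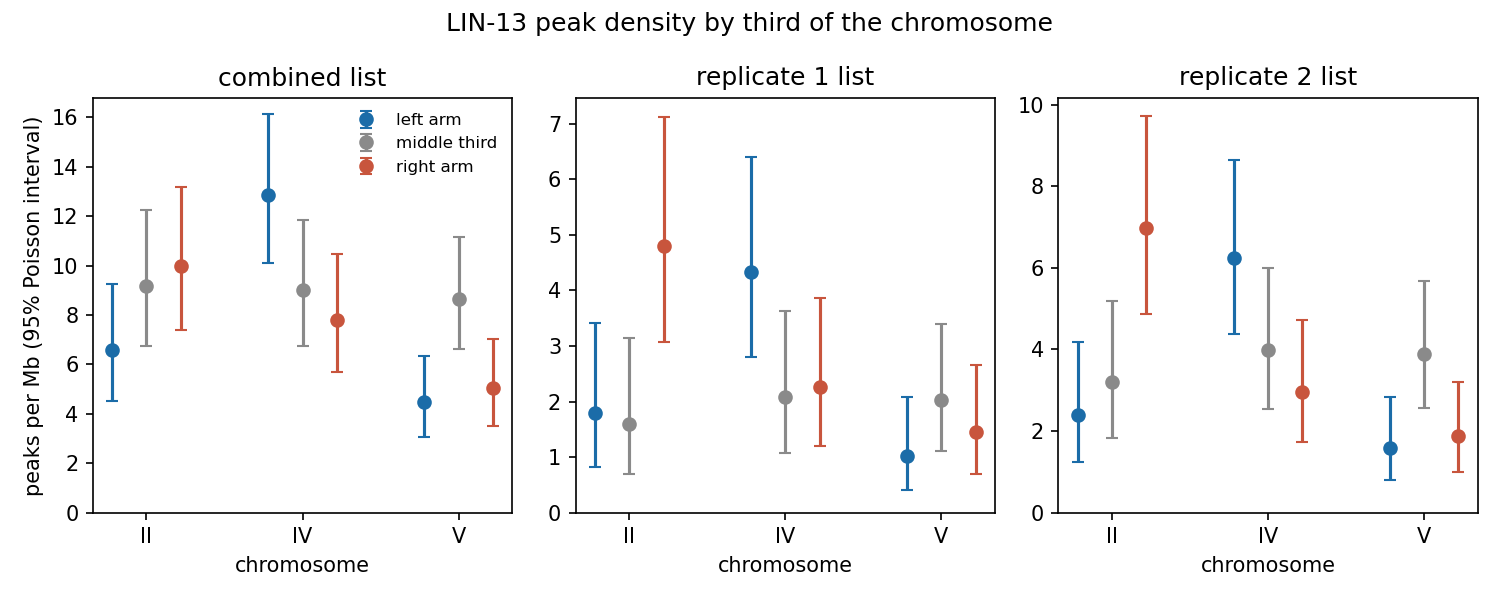
Peaks per Mb (y axis, own scale in each panel) in the left arm, middle and right arm of chromosomes II, IV and V (x axis), in the combined list and in each replicate list; points are densities and bars 95% Poisson intervals. The left arm of IV (12.8 per Mb in the combined list) and the right arm of II (9.98 per Mb) are the highest points of their chromosomes in each list, and both arms of V lie below its centre.

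Left and right arms did not differ in sum beyond counting error, and chromosomes II and IV leaned opposite ways. Over the 3 chromosomes the left arms held 7.80 peaks per Mb and the right arms 7.35, a ratio of 1.06 (0.83 to 1.36; exact p = 0.67, adjusted p = 0.77 over 11 comparisons). Chromosome IV leaned to the left: 74 peaks (12.8 per Mb, 10.1 to 16.1) against 45 on the right (7.81 per Mb, 5.70 to 10.5), a ratio of 1.64 (1.12 to 2.44; exact p = 0.0100, adjusted p = 0.030 over 3 chromosomes). Chromosome II leaned to the right in the replicate lists. Its left arm held 33 combined peaks (6.59 per Mb) and its right arm 50 (9.98 per Mb), a ratio of 0.66 whose interval of 0.41 to 1.04 held 1 (exact p = 0.078, adjusted p = 0.12). Chromosome V had no such lean, with a ratio of 0.89 (0.53 to 1.48; exact p = 0.71).

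Both replicate lists showed these leanings. On chromosome IV replicate 1 had 25 peaks on the left arm and 13 on the right, a ratio of 1.92 (0.95 to 4.09; exact p = 0.073, adjusted p = 0.11), and replicate 2 had 36 and 17, a ratio of 2.12 (1.16 to 4.02; adjusted exact p = 0.019). On chromosome II replicate 1 had 9 on the left and 24 on the right, a ratio of 0.38 (0.15 to 0.84; adjusted exact p = 0.041), and replicate 2 had 12 and 35, a ratio of 0.34 (0.16 to 0.68; adjusted exact p = 0.0033). The left to right ratio of chromosome II was 0.40 times that of chromosome IV in the combined list (0.22 to 0.74; adjusted p = 0.0076 over 3 pairs by Fisher's exact test). Replicate 1 put this quotient at 0.20 (0.062 to 0.60; adjusted exact p = 0.0055) and replicate 2 at 0.17 (0.061 to 0.42; adjusted exact p = 7.63e-05). The 3 lists overlap in their regions and are not independent of each other. With peaks no more than 10 kb apart counted once, the chromosome IV ratio was 1.33 (0.86 to 2.07; exact p = 0.21), and with the outermost of 4 equal sections as arms it was 1.53 (exact p = 0.066), so the call was lost under both.

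Within an arm, no difference towards the chromosome end was detectable. When each arm was cut at its midpoint, the outer parts of the 6 arms held 127 peaks (7.18 per Mb) and the inner parts 141 (7.97 per Mb), a ratio of 0.90 (0.70 to 1.15; exact p = 0.43). The ratio was 1.05 in replicate 1 (45 against 43 peaks) and 0.88 in replicate 2 (58 against 66). On chromosome II the outer parts held 34 and the inner parts 49 peaks, a ratio of 0.69 (0.43 to 1.10; exact p = 0.12). The values were 61 and 58 on chromosome IV and 32 and 34 on chromosome V. Since chromosome length was read from the last peak, the right end of each chromosome lies at a peak by construction.

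**Figure D2:**
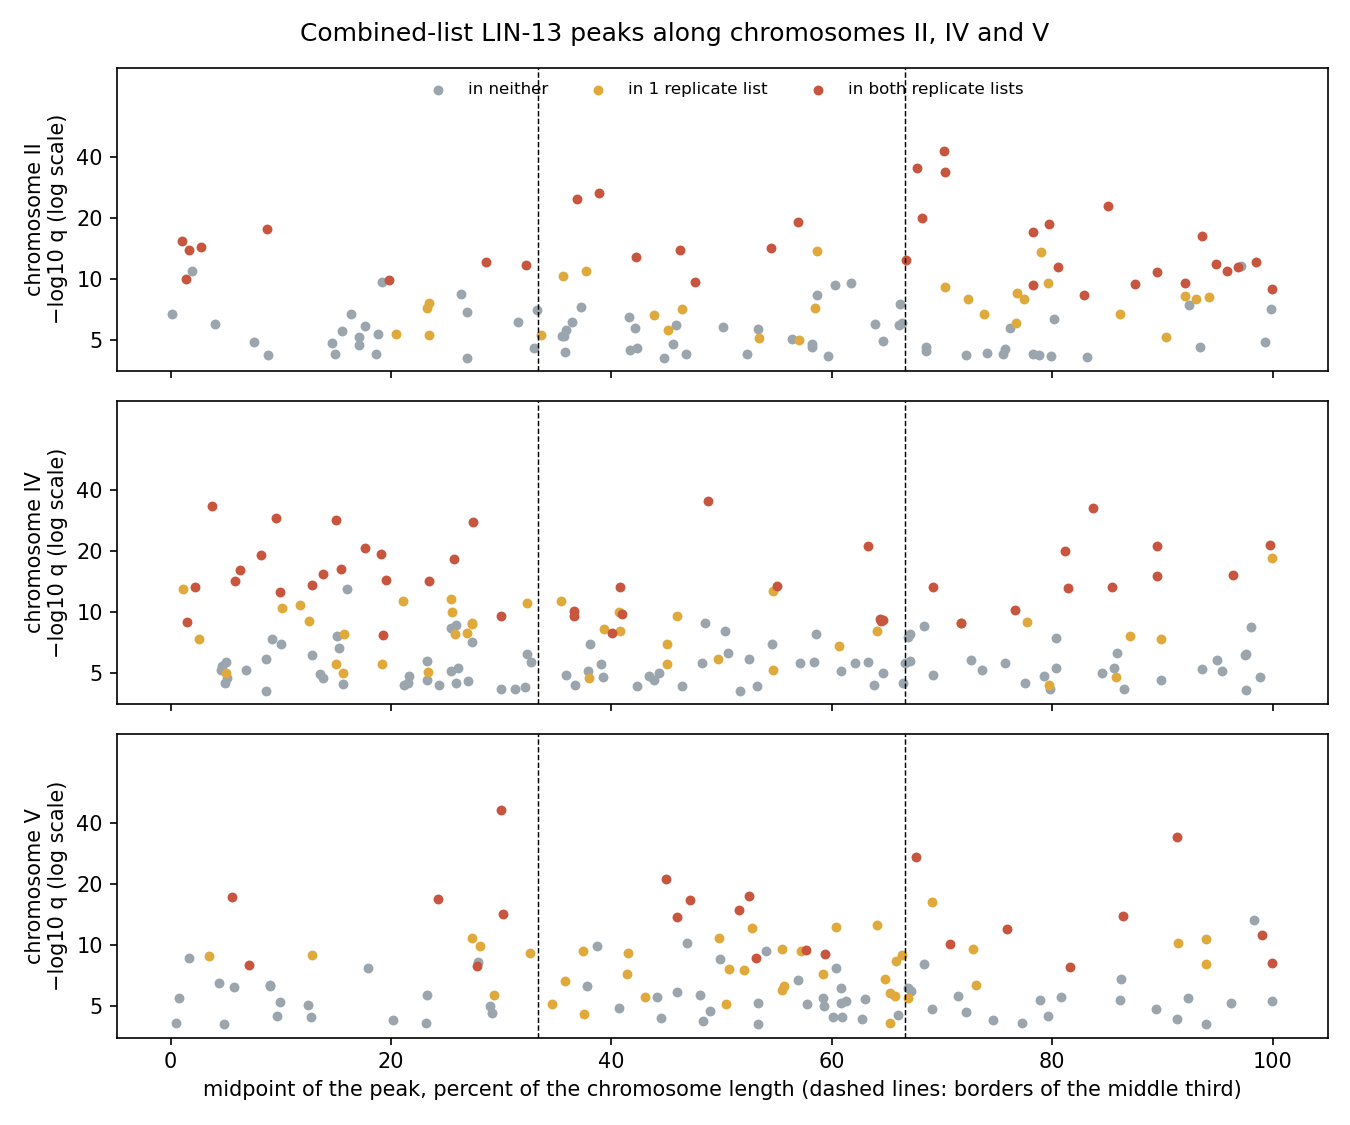
Each point is a combined-list peak on chromosome II, IV or V, at its midpoint as a percent of the chromosome length (x axis) and its −log10 q (y axis, log scale), coloured by its overlap with the replicate lists; dashed lines mark the borders of the middle. Peaks found in both lists number 20 of 74 on the left arm of IV and 20 of 50 on the right arm of II, and the arms of V, with 66 points over the longest sections, are the sparsest.

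The strongest arm peaks lay on V left and II right. The strongest was V 6223040 to 6230245, 7206 bp wide, with a combined q of 2.99e-47, 2.57e-18 in replicate 1 and 2.93e-26 in replicate 2. The next peaks of that arm were V 1151194 to 1152082 (889 bp) and V 5049265 to 5050289 (1025 bp), at 4.31e-18 and 1.17e-17. The former stood at 1.06e-08 in replicate 1 and 1.33e-13 in replicate 2, the latter at 1.38e-07 and 1.63e-12. So the left arm of V, the sparsest of the 6 arms, held the strongest single member, and its second peak ranked 79 in the list.

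The 3 strongest peaks on the right arm of II were II 10541844 to 10557659 (15816 bp, the widest member), II 10174233 to 10174722 (490 bp) and II 10563134 to 10563784 (651 bp), which ranked 7, 11 and 14 among all 911. Replicate 1 had them at q = 1.89e-12, 9.79e-12 and 9.51e-25, and replicate 2 at 6.49e-20, 7.78e-18 and 2.41e-29. The order of these members therefore changed with the list: the widest region led the combined list, and the 651 bp peak led in each replicate. The left arm of II had weaker leaders. They were II 1320374 to 1321146 (773 bp, combined q = 3.03e-18), II 155908 to 156405 (498 bp, 5.71e-16) and II 410762 to 411278 (517 bp, 5.77e-15), ranked 77, 105 and 116. The first stood at 2.95e-12 in replicate 1 and 5.57e-13 in replicate 2, the second at 1.45e-08 and 1.61e-07, and the third at 1.42e-08 and 2.22e-08.

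Chromosome IV had strong peaks on each arm. On the left they were IV 654677 to 655465 (789 bp, combined q = 5.26e-34), IV 1659004 to 1659481 (478 bp, 7.76e-30) and IV 2601908 to 2603089 (1182 bp, 4.00e-29). The values of replicate 1 were 4.11e-20, 5.46e-13 and 5.98e-12, and those of replicate 2 were 5.54e-24, 8.77e-18 and 5.94e-17. All 3 thus had the lower q in replicate 2, as did 49 of the 73 arm regions found in both lists. On the right they were IV 14464012 to 14464444 (433 bp, 2.86e-33), IV 17249652 to 17250066 (415 bp, 4.06e-22) and IV 15471335 to 15471768 (434 bp, 7.30e-22). Replicate 1 had these at 3.72e-19, 6.80e-09 and 2.16e-13, and replicate 2 at 1.14e-18, 1.77e-14 and 1.69e-10. The first and last of them had the lower q in replicate 1. The right arm of V was led by V 18967611 to 18968000 (390 bp, 1.01e-34), V 14054988 to 14055471 (484 bp, 5.62e-28) and V 14347156 to 14347664 (509 bp, 3.89e-17). Replicate 1 held the first at 9.90e-20 and the second at 9.54e-16, and replicate 2 held them at 2.89e-22 and 2.05e-13. The last was not called in replicate 1 and stood at 4.01e-12 in replicate 2; of the 3 leaders of each arm, no other was missing from a replicate list.

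Of the 100 strongest combined peaks, 11.0% of the list, the arms held 30 (11.2% of the 268 members, 95% Clopper-Pearson interval 7.68 to 15.6) and the centres of the same chromosomes 8 (5.06%, 2.21 to 9.73). The left arm of IV contributed 10, the right arm of II 8, the right arm of IV 5, each arm of V 3 and the left arm of II 1. Of these 30, 28 were in both replicate lists and 0 in neither. The 8 central ones were likewise all in both, against 21.5% of the list at any strength, so this is not particular to the arms. The 3 lists are not independent, so this overlap gives no separate support for the strongest peaks. Median −log10 q was 7.08 on the arms (quartiles 5.09 and 10.8) and 6.07 in the centres (5.08 and 9.25). The share of peaks at or over the median of the whole list (6.63) was 53.4% on the arms and 46.2% in the centres, an odds ratio of 1.33 that did not pass the test (95% interval 0.88 to 2.01; Fisher's exact test, p = 0.16, adjusted p = 0.47). The q-value rises and falls with depth and peak width as well as with enrichment.

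For each border between arm and middle, the nearest peak on either side was taken, whatever its distance. Any cut has such neighbours, so they show nothing particular about the borders. Just inside the arms lay II 4999131 to 4999561 and II 10033335 to 10033757, with −log10 q of 7.02 and 12.4, and just outside II 5055110 to 5055768 and II 9974762 to 9975268, at 5.29 and 6.03. On chromosome IV the inner neighbours of the borders were IV 5655425 to 5656461 (5.65) and IV 11523577 to 11524731 (5.62) and those outside IV 6117774 to 6118118 (11.3) and IV 11478973 to 11479696 (4.47). On chromosome V the values were 9.11 for V 6785109 to 6785468 and 5.51 for V 13907661 to 13908471 inside, and 5.12 for V 7196452 to 7196840 and 8.94 for V 13787497 to 13789904 outside.

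Arm peaks were found in both replicate lists more often than central ones, but the difference did not pass after adjustment. With each replicate list taken singly, it was seen in overlap with replicate 1 and not in overlap with replicate 2. Of the 268 arm peaks 73 overlapped a peak of each replicate by at least 1 bp (27.2%, 95% interval 22 to 33), against 26 of 158 in the centres (16.5%, 11.0 to 23.2) and 21.5% of the whole list. The odds ratio was 1.90 (1.13 to 3.27; Fisher's exact test, p = 0.012, adjusted p = 0.14 over 11 comparisons). Overlap with replicate 1 held for 85 arm peaks (31.7%) and 34 central ones (21.5%), against 26.1% of the list, an odds ratio of 1.69 (1.05 to 2.77; exact p = 0.026). Overlap with replicate 2 held for 117 (43.7%) and 66 (41.8%), against 39.1% of the list, an odds ratio of 1.08 (0.71 to 1.64; exact p = 0.76).

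The other support classes filled the remainder. Peaks found in exactly 1 replicate list made up 22.2% of the combined list. On the arms 12 peaks were in replicate 1 alone and 44 (16.4%) in replicate 2 alone, and in the centres 8 and 40 (25.3%). Neither replicate held 139 arm peaks (51.9%, 45.7 to 58.0) and 84 central peaks (53.2%, 45.1 to 61.1), against 56.3% of the list. All of the 73 arm and 26 central peaks in both replicates were at or over the median strength of the combined list, where the shares were 73 of 143 on the arms (51.0%) and 26 of 73 in the centres (35.6%), an odds ratio of 1.88 (1.02 to 3.53; exact p = 0.043). Under that median the counts were 0 of 125 and 0 of 85, so the comparison above it counts the same supported peaks as the pooled test. It was not planned, and its p is unadjusted. The way the replicates were combined was not stated in the labels or headers.

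The support odds ratio was highest on chromosome II, and no chromosome passed after adjustment. On its arms 28 of 83 peaks were in both replicates (33.7%) and in its centre 7 of 46 (15.2%), an odds ratio of 2.82 (1.06 to 8.43; exact p = 0.025, adjusted p = 0.074 over 3 chromosomes). Chromosome IV had 31 of 119 (26.1%) and 11 of 52 (21.2%), and chromosome V 14 of 66 (21.2%) and 8 of 60 (13.3%), with odds ratios of 1.31 (exact p = 0.57) and 1.74 (exact p = 0.35). Without chromosome II the pooled odds ratio was 1.57 (0.84 to 3.03; exact p = 0.15). By single arm the share in both replicates was 40% on the right of II (20 of 50, 26.4 to 54.8), 27.0% on the left of IV (20 of 74), 24.4% on the right of IV (11 of 45), 24.2% on the left of II (8 of 33), 22.9% on the right of V (8 of 35) and 19.4% on the left of V (6 of 31). Neighbours in this order had overlapping intervals. Left arms together had 34 of 138 (24.6%) and right arms 39 of 130 (30%), an odds ratio of 0.76 (0.43 to 1.35; exact p = 0.34, adjusted p = 0.62).

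**Figure D3:**
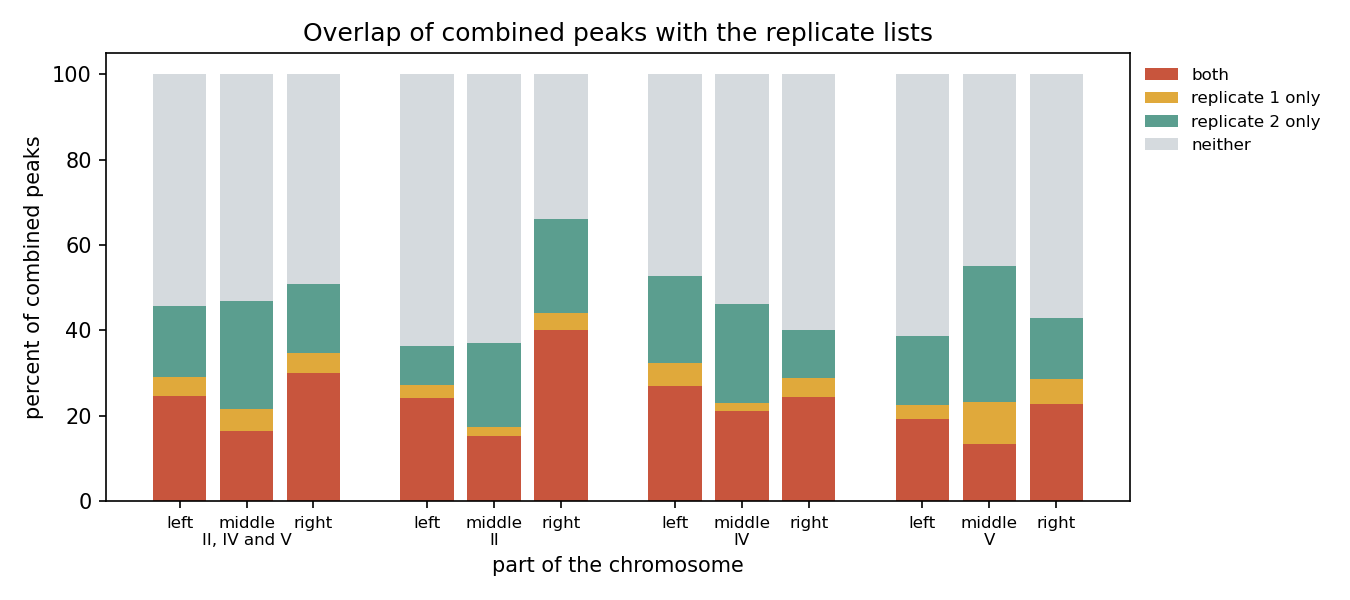
Percent of combined peaks (y axis) found in both replicate lists, in replicate 1 only, in replicate 2 only or in neither, for the left arm, middle and right arm (x axis), pooled and by chromosome. Among the 6 arms the right arm of II has the largest share in both (40%) and the smallest in neither (34%), and the pooled middles have 25.3% in replicate 2 only.

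Against chromosomes I, III and X pooled, no difference was detectable in how peaks were divided between arms and middle. There were 268 arm and 158 central peaks on II, IV and V and 308 and 177 on I, III and X, an odds ratio of 0.97 (0.74 to 1.29; Fisher's exact test, p = 0.89). This pool joins unlike chromosomes, which were not tested singly, and includes the sex chromosome X. Arms and middle held 9.08 and 14.2 peaks per Mb on I, 15.6 and 15.3 on III and 6.28 and 6.11 on X. Support did differ at an unadjusted level: 73 of 268 arm peaks were in both replicates against 59 of 308 (19.2%) on the arms of I, III and X, cut the same way, an odds ratio of 1.58 (1.05 to 2.38; exact p = 0.023). By chromosome the 2 groups overlapped. The share was 33.7% on the arms of II, 26.1% on IV and 21.2% on V, and 12.1% on I, 23.1% on III and 20.3% on X. Arm density was 7.57 per Mb (6.69 to 8.54) on II, IV and V and 9.95 per Mb (8.87 to 11.1) on I, III and X in the combined list, a difference that was not tested. Between these pools it was not seen in the replicate lists, with 2.49 and 2.46 per Mb in replicate 1 and 3.504 and 3.456 per Mb in replicate 2. The pool of I, III and X was uneven in each list. In the combined, replicate 1 and replicate 2 lists the arms of III held 15.6, 5.14 and 6.23 per Mb. Those of I held 9.08, 1.40 and 2.00, and those of X 6.28, 1.27 and 2.54.

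Where both replicates called an arm region, their positions lay close. Over the 73 regions the midpoints of the replicate peaks were a median of 38.5 bp apart, and 60 were within 100 bp. Replicate 1 had a median −log10 q of 6.74 there, replicate 2 one of 8.11, and the combined peaks one of 14.1, and the replicate 2 value was the higher in 49 of 73. Across these regions of 1 pair of lists, which are not independent replicates and share the authors' q limits, −log10 q had Spearman's rho = 0.60 and Pearson's r = 0.81. The 26 central regions had rho = 0.57, r = 0.75 and a median offset of 33.0 bp. Among the 73 regions, the 15816 bp one on II alone was split, into 2 peaks in replicate 1 and 3 in replicate 2.

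**Figure D4:**
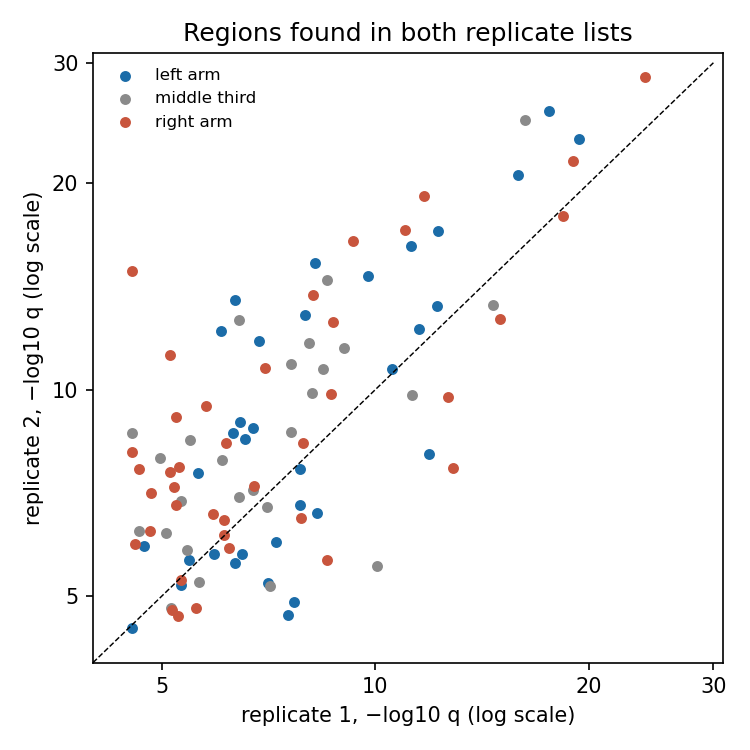
−log10 q of replicate 1 (x axis) and replicate 2 (y axis), both on log scales, for the 73 arm and 26 central regions of II, IV and V found in both lists, with the strongest overlapping peak taken; the dashed line marks equal values. Of the arm points, 49 of 73 lie above the line, as do 19 of the 26 central points.

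Peak width did not differ detectably between arms and middles in the combined list. The median width was 521.5 bp on the arms (quartiles 391 and 860), 534.5 bp on the left and 511.5 bp on the right, and 568 bp in the centres (427 and 1046). Of the arm peaks 46.3% reached the median of the whole list (552 bp) and of the central peaks 53.2%, an odds ratio of 0.76 (0.50 to 1.15; Fisher's exact test, p = 0.19, adjusted p = 0.47). Peaks of 900 bp or more made up 64 of 268 arm peaks (23.9%, 18.9 to 29.4) and 43 of 158 central peaks (27.2%, 20.4 to 34.9), against 25.7% of the list. In the replicate 2 list the difference was larger, with medians of 442.5 bp (124 peaks) and 577 bp (66 peaks) and an odds ratio of 0.45 for reaching that list's median (0.23 to 0.87; exact p = 0.014). In replicate 1 the medians were 455.5 bp and 535.5 bp and the odds ratio 0.50 (0.20 to 1.19; exact p = 0.11). The arm peaks together covered 222.6 kb and the central ones 140.4 kb.

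No width difference was detectable between left and right arms, with 48.6% and 43.8% of peaks at or over 552 bp (odds ratio 1.21, 0.73 to 2.01; Fisher's exact test, p = 0.46, adjusted p = 0.73). Single arms ranged in median width from 452 bp on the left of II to 629 bp on the left of V. The widest peak of each arm spanned 1121 bp on II left (II 1134324 to 1135444), 3224 bp on IV left (IV 3644821 to 3648044), 4866 bp on IV right (IV 17276937 to 17281802) and 3305 bp on V right (V 14685558 to 14688862). On II right and V left it was the strongest peak named above. The 1121 bp peak was in neither replicate list, the 3224 bp peak was in replicate 1 alone (q = 1.27e-05), and the 4866 bp peak, the last on its chromosome, was met by 2 peaks of replicate 2 and none of replicate 1. Pooled over II, IV and V, arm peaks in both replicates had a median width of 534 bp and those in neither 479 bp. In the centres the medians were 785.5 bp and 479 bp. By chromosome the arm medians were 515.5 and 408.5 bp on II and 686.5 and 488 bp on V. On IV the order was turned, with 535 bp in both and 616 bp in neither. The 12 arm peaks in replicate 1 only had a median of 729 bp.

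Spacing was measured from each midpoint to the nearest other midpoint on the chromosome. The median was 30.8 kb on the arms (quartiles 7.49 and 81.8) and 36.7 kb in the centres (8.81 and 71.9). Of the arm peaks 49.3% and of the central peaks 46.8% were at or under the median of the whole list (30.1 kb), an odds ratio of 1.10 (0.73 to 1.67; Fisher's exact test, p = 0.69, adjusted p = 0.77). Left arms had a median of 30.03 kb and right arms 31.5 kb (odds ratio 1.06, 0.64 to 1.77; exact p = 0.81). In replicate 2 the left arms were the tighter by median, with 60.6 and 97.1 kb and an odds ratio of 2.56 for lying at or under that list's median (1.17 to 5.71; exact p = 0.012). In replicate 1 the medians were 129.9 and 161.8 kb and the odds ratio 1.41 (0.56 to 3.58; exact p = 0.52). At short range the order turned in both replicate lists. Within 10 kb of another peak lay 0 of 41 left and 12 of 47 right arm peaks in replicate 1, and 4 of 59 and 15 of 65 in replicate 2. These shares were not tested. By chromosome the arms of IV were the tightest at 16.7 kb, those of II stood at 35.1 kb and those of V at 52.1 kb. On chromosome IV 63.9% of arm peaks and 46.2% of central peaks were under 30.1 kb, an odds ratio of 2.05 (1.01 to 4.21; exact p = 0.042, adjusted p = 0.13 over 3 chromosomes). Without chromosome IV the left to right comparison of the combined list turned to an odds ratio of 0.43 (0.20 to 0.90; exact p = 0.018). Distance follows density in part, since denser arms leave less room.

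**Figure D5:**
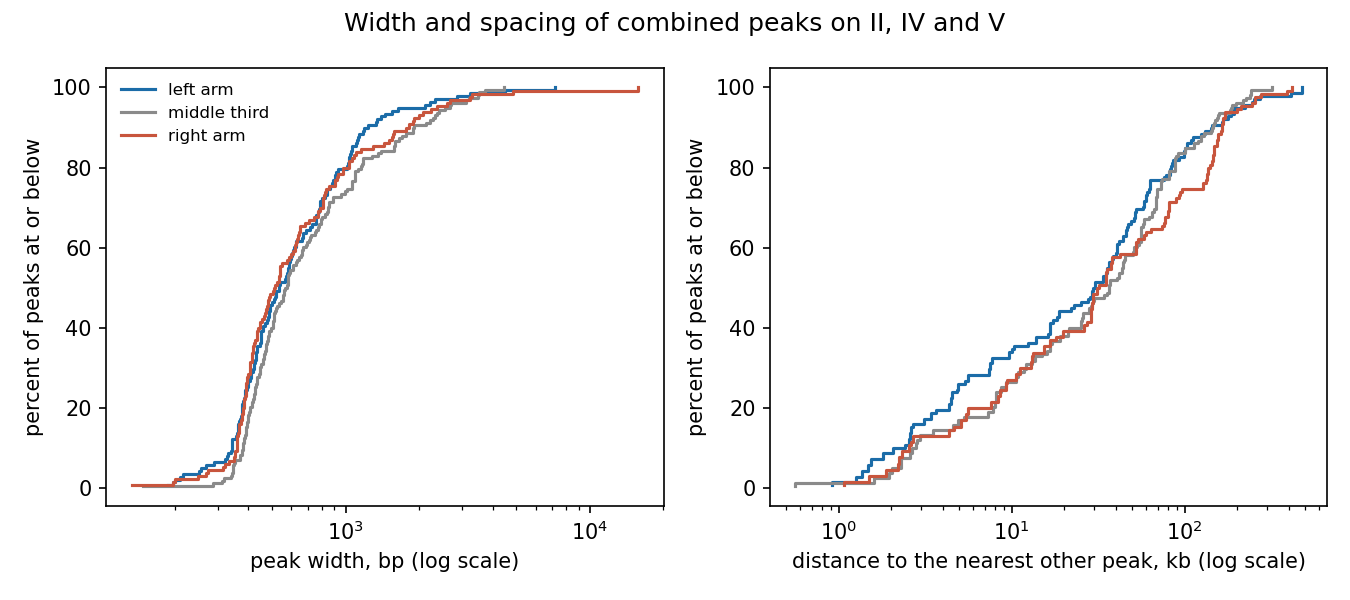
Cumulative percent of combined peaks (y axes) against peak width (left) and distance to the nearest other peak (right), both on log scales, for the left arms, middles and right arms of II, IV and V. The medians of the width curves lie between 511.5 and 568 bp. Within 10 kb of another peak lie 47 of 138 left arm and 42 of 158 central peaks of the combined list, an order that is turned in replicate 1 (0 of 41 and 4 of 34) and replicate 2 (4 of 59 and 10 of 66). On the right arms these counts are 35 of 130 in the combined list, 12 of 47 in replicate 1 and 15 of 65 in replicate 2.

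Among the 6 arms, the left arm of IV held the largest share of clustered peaks in the combined list, but in the replicate lists the right arm of II did. When peaks with gaps of 10 kb or less were joined, 37 of the 74 peaks on IV left (50.0%) fell into 15 runs, and 6 of the 9 runs with at least 3 arm peaks lay there. The corresponding shares were 26.7% on the right of IV, 24.2% on the left of II, 24.0% on the right of II, 12.9% on the left of V and 31.4% on the right of V. In the middle of IV the share was 34.6%, with 2 runs of at least 3 peaks. By the share of peaks within 10 kb of another in the same list, IV left had 35 of 74 in the combined list, 0 of 25 in replicate 1 and 4 of 36 in replicate 2. On II right these counts were 12 of 50, 8 of 24 and 11 of 35. The middle of IV had 18 of 52, 4 of 12 and 8 of 23, and the middle of I 34 of 71, 2 of 10 and 6 of 18. Such clustering was thus not particular to the arms. Each replicate list had 4 peaks in the run II 10541844 to 10563784. There the 15816 bp region of the combined list was split into 2 peaks in replicate 1 and 3 in replicate 2. The largest run was IV 4390480 to 4407391, with 4 peaks over 16.9 kb and a best q of 2.96e-12. None of its 4 peaks was in both replicates: 1 was in replicate 1, 1 in replicate 2 and 2 in neither. Another, IV 2599574 to 2605123, packed 3 peaks into 5.55 kb around the 1182 bp leader of that arm, and 1 of the 3 was in both lists. The remaining 4 of these runs on IV left held no peak in both replicates, and their best q values ranged from 2.35e-06 to 1.52e-09.

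On other arms, the run II 10541844 to 10563784 took in the widest region and the 651 bp peak, with 3 peaks over 21.9 kb, of which 2 were in both replicates and all 3 in replicate 1. The run II 11756463 to 11762215 held 3 peaks over 5.75 kb, 2 of them in both lists, with a best q of 1.12e-17. On V right, V 19521650 to 19529709 held 3 peaks over 8.06 kb, 2 in replicate 1 and 0 in replicate 2. The closest neighbours of an arm stood 247 bp apart on IV left (IV 2219133 to 2219890 and IV 2220138 to 2220708) and 338 bp apart on V right (V 20771969 to 20773005 and V 20773344 to 20776026). The gap was 546 bp on II right, between II 10541844 to 10557659 and II 10558206 to 10560020, and 591 bp on IV right, between IV 15471335 to 15471768 and IV 15472360 to 15472892. It was 1333 bp on V left and 3071 bp on II left. Both peaks of the IV right pair were in both replicate lists, and neither peak of the V left and II left pairs was in any. Whether neighbours this close are separate sites or pieces of a broader region was not tested.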

How the data were processed

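LIN-13 ChIP libraries (2) and input libraries (2) were grouped by title. The authors deposited 3 peak lists, 1 per ChIP replicate and 1 combined, with the position and q-value of each peak, a p-value after multiple-testing correction. Per the file headers and source column, peaks were called with PeakSeq on WormBase WS180; aligner, version, q limit, use of input and way of combining: not given in the sources used here. Lists hold no read counts, so depth is unknown.

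Peaks were placed by midpoint in 3 equal sections (left arm, middle, right arm), and overlap meant at least 1 bp shared. Peak counts per length were compared with the exact conditional binomial test, and shares with Fisher's exact test, both two-sided. Widths, distances and −log10 q were compared as shares past the median of the list. P-values were Benjamini-Hochberg adjusted over the 11 pooled comparisons or over 3 chromosomes or pairs; single chromosomes, outer and inner arm parts, runs, the strongest 100 and other chromosomes were examined later. Shares carry Clopper-Pearson and densities Poisson 95% intervals. Named regions are the 3 strongest, the widest and the closest pair per arm, and the border peaks; any other region was picked with its values known. The members and lists were chosen with earlier results of these data known. The code (Python 3.11.15, numpy 2.4.6, scipy 1.17.1, matplotlib 3.10.9) was tested on simulated peak lists. Alternatives covered the arm borders, the overlap rule, the q limit, joining of neighbours, each list and each chromosome.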

Additional observations from a re-analysis of the deposited data

How the results depend on the processing

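Ratios are arms over middle or left over right, as densities or odds; p is the unadjusted exact p unless stated, and the cause of a change was not tested. The arm to middle density ratio (0.85) was 0.82 with the outermost of 4 equal sections as arms (exact p = 0.047), 0.70 without chromosome IV (exact p = 0.0064), 1.03 without chromosome V, 1.40 for combined peaks in both replicates and 0.94 to 1.29 in single replicate lists. Without chromosome V it was 1.77 in replicate 1 (exact p = 0.026) and 1.28 in replicate 2. The left to right density ratio (1.06) was 0.99 after joining within 10 kb, 0.87 for peaks in both replicates, 0.75 without chromosome IV and 0.87 to 0.91 in single lists. Support of arms against middle (odds ratio 1.90) was 1.57 without chromosome II and 1.08 to 1.69 with overlap to a single replicate; it was past 0.05 in 9 of 11 alternatives, exact p from 0.0034 to 0.76. Support of left against right (0.76) was 1.06 without chromosome II, 1.01 after joining, and 0.77 to 0.82 with a single replicate. Width of arms against middle (0.76) was 0.45 to 0.50 in single lists, and of left against right (1.21) 0.86 at a q limit 10 times lower and 0.67 to 1.25 in single lists. Spacing of arms against middle (1.10) was 0.86 with 4 sections, 0.73 at the lower q limit, 0.68 without chromosome IV and 1.10 to 1.69 in single lists. Spacing of left against right (1.06) was 0.93 at the lower q limit, 0.43 without chromosome IV (exact p = 0.018) and 1.41 to 2.56 in single lists (exact p = 0.012 in replicate 2). Strength kept its direction, from 1.01 to 1.62. Between chromosomes, the quotient of II and IV (0.79) was 1.27 to 1.30 in single lists, that of II and V (1.64) 1.84 with 4 sections (adjusted exact p = 0.033) and 3.27 to 3.34 in single lists, and that of IV and V (2.08) 2.57 to 2.58 in single lists. On chromosome II the arm to middle density ratio was 1.47 to 2.06 in single lists, against 0.90. Support of arms against middle, counted as any overlap with replicate 2, was 0.95 on chromosome IV and 0.70 on chromosome V. The low density on the arms of V was 0.44 to 0.61 under 4 alternatives, with p under 0.05 in 3 of them, and 0.61 (exact p = 0.18) in replicate 1. No paired analysis was possible because peaks were listed for ChIP libraries and not for inputs of the same numbers. Depth is unknown, so a region missing from a list was not called there and is not shown to be unbound.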

Other observations

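Long stretches of some arms held no combined peak; they were singled out after their values were seen. The longest lay on V left, V 2673141 to 3716257 (1043 kb), followed by V right, V 16965992 to 17904898 (938.9 kb), and II left, II 1325566 to 2204090 (878.5 kb). On IV right the longest was 640.4 kb, on IV left 433.3 kb and on II right 356.6 kb. In the middles the longest were 405.5 kb on II, 355.9 kb on IV and 422.1 kb on V. Peaks cannot be called where reads do not map, and mappability was not tested.

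A few replicate peaks of the arms were absent from the combined list: 2 of 88 in replicate 1 and 4 of 124 in replicate 2, against 0 of 34 and 0 of 66 in the middles. A region on II right was missing although both replicates called it, at II 11979592 to 11980406 in replicate 1 (q = 1.51e-05) and II 11979675 to 11980374 in replicate 2 (q = 1.91e-05), and the nearest combined peak lay 5.14 kb from the former. The others were IV 5731629 to 5731969 in replicate 1 (q = 1.96e-05) and II 4376519 to 4377266 (3.72e-05), II 14349180 to 14349812 (3.97e-05) and IV 5563026 to 5563761 (2.63e-05) in replicate 2.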
